A study of Mus musculus with 4 samples.

Results

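The AP-1 and immediate early genes described here are Fos, Fosb, Fosl1, Jun, Junb, Jund, Atf3, Egr1, Ier3 and Dusp1, 10 of the 25289 gene columns that all 4 libraries share. They were chosen by name as members of one transcription factor family and its early-response companions, and all 10 had a column. Messenger RNA was counted in single epithelial cells of the adult C57BL/6J mouse small intestine with inDrop, in which droplets tag the RNA of 1 cell with 1 barcode. The 2 Lats-deleted libraries came from Lrig1-CreERT2 Lats1fl/fl Lats2fl/fl mice, in which the Lrig1 gene, active in intestinal stem and progenitor cells, drives a tamoxifen-inducible Cre. The 2 control libraries came from Lats1fl/fl Lats2fl/fl mice with no Cre. All mice were given 2 mg of tamoxifen intraperitoneally, with tissue collected on day 7. Because controls lack the Cre, the Cre itself and the loss of Lats1 and Lats2 cannot be told apart. The labels do not tie the libraries to separate animals, so each p-value measures only the spread between these libraries.

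AP-1 is a dimer of basic leucine zipper proteins. FOS, FOSB and FOSL1 bind DNA only together with a JUN protein, whereas JUN, JUNB and JUND also pair among themselves and with ATF proteins such as ATF3. The genes for most of these proteins, and for the zinc-finger factor EGR1, are transcribed within minutes of growth factor or stress signals through MAP kinases, ternary complex factors and SRF, without need for new protein. IER3 is an early-response protein that acts on cell survival and on ERK signaling, and DUSP1 is a phosphatase that inactivates MAP kinases. LATS1 and LATS2 restrain the coactivators YAP and TAZ, which act through TEAD factors, and AP-1 and TEAD sites are often found at the same enhancers.

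The start-site regions of 4 members are shown because Ier3 and Dusp1 differed most between the groups, while Jun and Fos did not pass the test. The sequences are RefSeq's on GRCm38.p6, from 250 bases before to 50 bases after the start, 5′ to 3′ on the gene's strand. Capitals mark letters that match the CRE-type AP-1 and ATF motif TGANNTCA or its shorter form TGACG on either strand.
Ier3, chr17:35821463-35821762, plus strand: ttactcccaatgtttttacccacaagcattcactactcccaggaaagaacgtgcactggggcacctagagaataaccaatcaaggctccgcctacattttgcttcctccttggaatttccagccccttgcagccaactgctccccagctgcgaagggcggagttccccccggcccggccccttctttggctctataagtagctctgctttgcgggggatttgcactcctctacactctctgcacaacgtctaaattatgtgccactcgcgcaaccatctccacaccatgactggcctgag
Dusp1, chr17:26508423-26508722, minus strand: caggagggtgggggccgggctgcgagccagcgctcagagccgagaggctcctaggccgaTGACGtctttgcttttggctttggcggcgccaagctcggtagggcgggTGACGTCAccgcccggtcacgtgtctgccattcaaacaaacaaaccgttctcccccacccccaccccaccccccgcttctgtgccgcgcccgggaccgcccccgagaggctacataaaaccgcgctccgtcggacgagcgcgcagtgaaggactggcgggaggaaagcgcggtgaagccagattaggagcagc
Fos, chr12:85473640-85473939, plus strand: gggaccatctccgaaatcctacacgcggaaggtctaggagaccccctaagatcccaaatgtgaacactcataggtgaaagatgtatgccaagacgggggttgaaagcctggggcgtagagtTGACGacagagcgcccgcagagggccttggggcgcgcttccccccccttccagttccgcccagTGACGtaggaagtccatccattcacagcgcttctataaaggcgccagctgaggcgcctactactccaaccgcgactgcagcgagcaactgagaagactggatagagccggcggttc
Jun, chr4:95052173-95052472, minus strand: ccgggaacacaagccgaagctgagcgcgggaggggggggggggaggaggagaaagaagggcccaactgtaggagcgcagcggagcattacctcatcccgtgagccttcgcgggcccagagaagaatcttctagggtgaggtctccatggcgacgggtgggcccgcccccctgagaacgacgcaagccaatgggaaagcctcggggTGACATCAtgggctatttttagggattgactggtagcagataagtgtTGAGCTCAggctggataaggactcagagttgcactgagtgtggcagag

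The table held a start-site region for 8 of the 10 members. TGANNTCA stood in 3 of these 8 regions (Jun, Jund and Dusp1) and in 14.1% of all 32851 regions of that length. TGACG stood in 5 of 8 (Fos, Fosb, Junb, Atf3 and Dusp1) and in 20.8% of all regions. In Dusp1 the 2 motifs overlap at the same letters, beginning 143 bases before the start. The classical AP-1 motif TGANTCA, the TEAD motif GGAATG and the CArG box that SRF binds were in none of the 8, against 7.81%, 14.7% and 1.63% of all regions. The Jund region, chromosome 8 from 70697489 to 70697788, ends before the gene span given below, which begins at 70698949. Those of Dusp1 and Atf3 lie inside the spans given below. These are matches of letters within a short window, and binding was not measured.

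The members lie on 8 chromosomes of GRCm38 in the GENCODE annotation, all as protein-coding genes. Ier3 (ENSMUSG00000003541.6) spans chromosome 17 from 35821684 to 35822923, and Dusp1 (ENSMUSG00000024190.7) spans chromosome 17 from 26505590 to 26562128. Fos (ENSMUSG00000021250.13) spans chromosome 12 from 85473890 to 85477273, and Jun (ENSMUSG00000052684.4) spans chromosome 4 from 95049034 to 95052222. Junb (ENSMUSG00000052837.6) lies on chromosome 8 from 84974484 to 84978718, and Jund (ENSMUSG00000071076.6) on the same chromosome from 70698949 to 70700616. Atf3 (ENSMUSG00000026628.13) lies on chromosome 1 from 191170296 to 191218039, and Fosb (ENSMUSG00000003545.3) on chromosome 7 from 19302696 to 19310051. Egr1 (ENSMUSG00000038418.7) lies on chromosome 18 from 34859823 to 34864984, and Fosl1 (ENSMUSG00000024912.6) on chromosome 19 from 5447547 to 5455946. Jun, Junb, Dusp1 and Fosl1 overlap a gene on the other strand that has its own column. Whether counting used the strand is not given in the sources used here, so the counts of those 4 are uncertain to that extent. Ergic1, which overlaps Dusp1, had 208 and 171 CPM in Lats-deleted libraries and 32.6 and 29.9 CPM in controls (adjusted p = 0.000494).

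Kept cells numbered 726 and 1289 in Lats-deleted libraries 1 and 2, and 774 and 515 in control libraries 1 and 2. Their median counts per cell were 3715.5 and 3848 in Lats-deleted libraries and 1708 and 1995 in controls, and the median mitochondrially encoded share was 3.64% and 3.90% against 9.55% and 6.84%. Between 4 and 12 kept barcodes were shared by any 2 libraries. Enterocyte-like cells made up 5.23% and 1.63% of kept cells in Lats-deleted libraries and 80.2% and 77.3% in controls, and all 10 enterocyte markers were lower. Xist had 640 and 505 CPM against 9.35 and 6.51 CPM, and Y-linked genes summed to 34.8 and 25.4 CPM against 93.5 and 108 CPM, so sex and genotype cannot be told apart. Lats-deleted library 2 held 299 gastric-like cells, Lats-deleted library 1 none, and Lats-deleted library 1 held 71 stromal-like cells against 8 in library 2. Lats1 had 6.93 and 9.26 CPM in Lats-deleted libraries and 23.4 and 35.2 CPM in controls (adjusted p = 0.0087), whereas Lats2 had 27.2 and 20.1 CPM against 9.20 and 10.5 CPM (adjusted p = 0.0305). Whether these counts fall in the deleted exons was not tested.

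In the sum of all kept cells, Ier3 and Dusp1 differed most, Atf3, Junb, Jund, Egr1, Fosb and Fosl1 were also higher in Lats-deleted libraries, and Fos and Jun missed the threshold. All 10 members were tested, with 8 higher and 0 lower at an adjusted p under 0.05 (edgeR quasi-likelihood test with Benjamini-Hochberg adjustment). Of the 12561 genes tested, 15.3% were called higher and 30.8% were called in either direction. The median log2 fold change was 2.03 over the 10 members and 0.05 over all genes tested. Fosb and Fosl1 passed the filter on low counts only through the Lats-deleted libraries, and Egr1, Ier3 and Dusp1 reached its level of 3.87 CPM in 1 of the 2 control libraries. In such sums a change in how many cells of a type were present and a change in RNA per cell cannot be told apart. Values in this comparison are CPM, counts scaled to a common total, of the tested genes after TMM scaling.

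Ier3 had 526 and 213 CPM in Lats-deleted libraries 1 and 2 and 13.5 and 2.64 CPM in controls. Both Lats-deleted libraries lay far above both controls, and library 1 was well above library 2. The log2 fold change was 5.45 (SE 0.706, adjusted p = 0.00196). Dusp1, the MAP kinase phosphatase, had 204 and 119 CPM in Lats-deleted libraries and 2.12 and 6.15 CPM in controls. Its groups did not overlap either, and its log2 fold change reached 5.33 (SE 0.497, adjusted p = 0.000561).

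Atf3, a stress-induced partner of JUN proteins, had 94.7 and 51.3 CPM in Lats-deleted libraries and 7.79 and 7.03 CPM in controls. The log2 fold change was 3.28 (SE 0.418, adjusted p = 0.00185), without overlap. Egr1 had 40.0 and 29.6 CPM in Lats-deleted libraries and 3.54 and 13.2 CPM in controls, where the second control was the higher one. For Egr1 the log2 fold change came to 2.10 (SE 0.517, adjusted p = 0.0228).

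Among the JUN proteins, Junb and Jund rose and Jun did not pass the test. Junb had 223 and 194 CPM in Lats-deleted libraries and 66.5 and 69.4 CPM in controls, close together within each group and without overlap (log2 fold change 1.62, SE 0.211, adjusted p = 0.00204). Jund, the JUN gene that is expressed in most resting cells, had 431 and 373 CPM in Lats-deleted libraries and 246 and 215 CPM in controls (log2 fold change 0.80, SE 0.220, adjusted p = 0.0339). Jun had 65.2 and 61.2 CPM in Lats-deleted libraries and 72.2 and 50.1 CPM in controls. The Lats-deleted values lay between the control values, and the log2 fold change was 0.04 (adjusted p = 0.917), with the sign turned in 5 of 16 alternatives and no call in any of them. With enterocyte-like cells left out it was 1.05 (adjusted p = 0.0841).

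Among the FOS proteins, Fos had 204 and 131 CPM in Lats-deleted libraries and 99.8 and 51.0 CPM in controls. The groups did not overlap, but the log2 fold change of 1.14 (SE 0.368) had an adjusted p of 0.0561, and Fos passed in 10 of 16 alternatives. Fosb was low throughout, with 13.1 and 8.61 CPM in Lats-deleted libraries and 3.54 and 1.76 CPM in controls (log2 fold change 1.96, adjusted p = 0.0321). Fosl1, which encodes FRA1, had 10.5 and 7.15 CPM in Lats-deleted libraries and 2.12 and 0 CPM in controls. Its controls held 3 counts in all, for a ratio of 7.19 with a 95% counting interval of 2.38 to 35.5 (adjusted p = 0.0356).

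Ier3, Dusp1 and Atf3 passed the threshold under each of 16 alternatives, with adjusted p-values up to 0.0264, 0.0209 and 0.0418. Without control library 1, 3 members passed (Ier3, Dusp1 and Atf3), and without control library 2, 4 passed, Egr1 being the fourth. Junb then had adjusted p-values of 0.0647 and 0.0544, Jund 0.203 and 0.288, Fosb 0.105 and 0.177, and Fosl1 0.0546 and 0.141, while Egr1 had 0.114 without control library 1. With enterocyte-like cells left out, Fos passed at a log2 fold change of 2.28 (adjusted p = 0.0141), and Fosb, Fosl1 and Egr1 no longer passed, at 0.320, 0.174 and 0.130. Among cells with at least 2000 counts, which sets aside the shallower cells, 6 members passed, Fos among them (adjusted p = 0.0365), while Fosb, Fosl1 and Jund did not, at 0.157, 0.057 and 0.0529. With DESeq2 in place of edgeR, Fosb had an adjusted p of 0.0837.

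**Figure D1:**
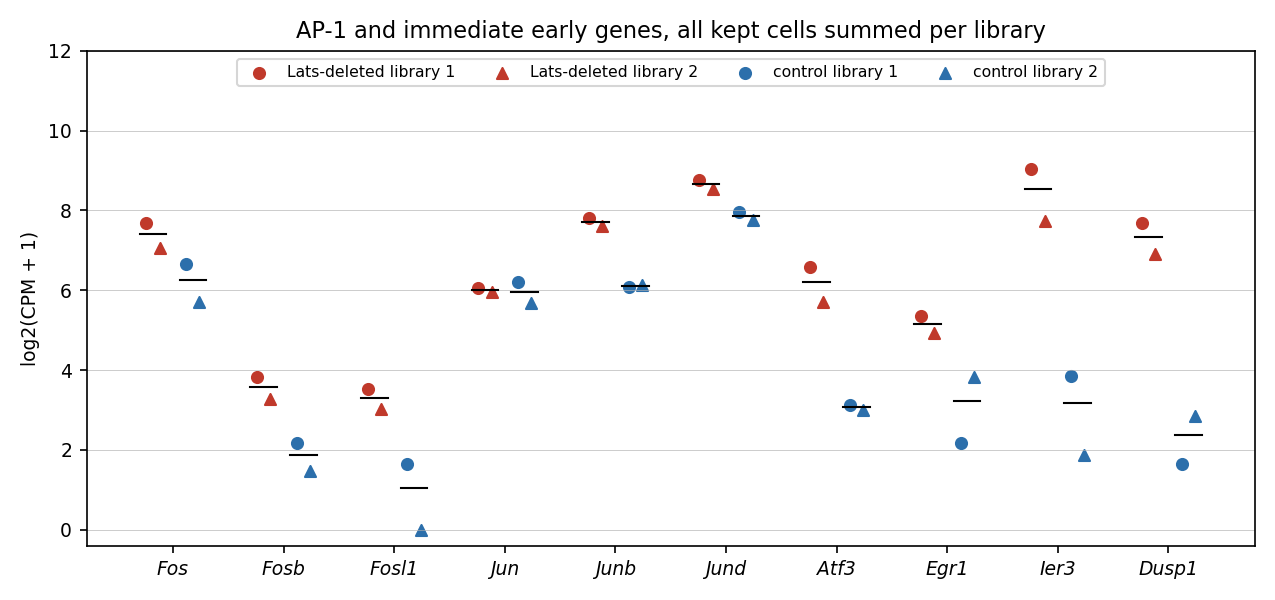
Level of each member in the sum of all kept cells, as log2(CPM + 1) on the vertical axis, with 1 point per library (circle, library 1; triangle, library 2), Lats-deleted in red at the left of control in blue, and a bar at each group's mean CPM. Points of the groups interleave for Jun, with 65.2 and 61.2 CPM in Lats-deleted libraries and 72.2 and 50.1 CPM in controls.

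Most Lats-deleted cells held a count of at least 1 member, and most control cells held none. To set libraries of unequal depth on one footing, each cell was thinned to 1000 counts, and no kept cell was shallower. A cell then held a count of 1.22 and 0.965 members on average in Lats-deleted libraries 1 and 2, and of 0.381 and 0.305 members in controls. Cells with none of the 10 made up 30.3% and 39.7% against 67.6% and 74.6%, and cells with 3 or more made up 13.2% and 7.68% against 0.904% and 0.777%. The groups did not overlap in any of these values. With 2 libraries a group, a permutation test could not pass the threshold, so none was made.

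Ier3 was present in 29.6% of thinned cells in Lats-deleted library 1 (exact 95% binomial interval 26.3% to 33.1%) and 16.1% in library 2 (14.1% to 18.2%), against 0.775% (0.285% to 1.68%) and 0% of 515 cells (up to 0.714%) in controls. Without thinning these shares were 57.4% and 34.6% against 1.68% and 0.583%. Among the 38 and 21 enterocyte-like cells of the same Lats-deleted libraries, 0% held Ier3, with intervals up to 9.25% and 16.1%. The bound for library 2 reaches the share over all its cells. Median depths of these enterocyte-like cells were 2402.5 and 1893 counts. Dusp1 was present in 83 of 726 and 129 of 1289 thinned cells in Lats-deleted libraries and in 1 of 774 and 3 of 515 in controls. Junb was present in 17.5% and 17.4% against 4.65% and 4.66%, the most even of the members within each group. For Fos the shares were 13.8% and 10.1% against 6.46% and 3.69%, and for Jun they were 5.65% and 5.12% against 5.81% and 4.08%. Counts gathered in few cells of both groups, here without thinning. In Lats-deleted library 1, 45 of 726 cells held 50% of the Fos counts, with 47 in a single cell, and 58 of 726 held 50% of its Ier3 counts. For Fos it was 71 of 1289 cells in Lats-deleted library 2, and 25 of 774 and 10 of 515 in controls. Intervals cover counting error only.

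Across cell clusters, Ier3 and Dusp1 were present in each Lats-deleted cluster of at least 20 cells. No enterocyte-like cluster of the Lats-deleted libraries reached 20 cells, and those cells together held no Ier3 count. Each gene was at 0 in 3 of the 6 clusters of control library 1 and 4 of the 6 of library 2, stem-like cells among them. In the control stem-like cells 3 counts amount to 15.5 and 17.4 CPM. Over all kept control cells Ier3 had 13.5 and 2.64 CPM and Dusp1 2.12 and 6.15 CPM. These zeros therefore do not set the stem-like cells apart from other control cells. Fos and Jun had their control maximum in 1 enterocyte-like cluster. Clusters were built without the 10 members and the other immediate early genes listed below, and levels within them are plain CPM of the cells summed. The control cells led by Ada and Enpp3, an enterocyte-like cluster, had Fos at 285 and 308 CPM and Jun at 234 and 258 CPM in control libraries 1 and 2. These cells were 14.3% and 11.5% of kept cells and held 51.1% and 63.8% of the Fos counts and 57.8% and 54.4% of the Jun counts. The larger control cluster led by Lct and Sis had Fos at 70.0 and 15.8 CPM and Jun at 30.0 and 27.6 CPM. Junb was also highest in the Ada and Enpp3 cells of both controls, at 127 and 133 CPM. Dusp1 rested there on 1 count in the first control (3.96 CPM) and 4 counts in the second (33.4 CPM), too few to place it.

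In Lats-deleted libraries, the regenerative-like cells held the largest share of Ier3, Dusp1 and Atf3 counts of any class and are named for fetal-like markers. These cells were 42.3% and 17.9% of kept cells in libraries 1 and 2 and, being deeper, held 61.2% and 22.6% of all counts. They held 81.5% and 52.5% of Ier3 counts, 88.0% and 41.2% of Dusp1 counts and 76.8% and 34.0% of Fos counts. Their larger cluster, led by Plat and Tgfb2, had the highest Ier3, at 810 and 648 CPM, with Dusp1 at 337 and 213 CPM and Fos at 274 and 199 CPM. Jun was at 59.4 and 39.2 CPM there, below the control Ada and Enpp3 cells. Ier3 is among the 10 genes of highest fold in that cluster although it took no part in building it. The smaller cluster, led by Clca4a and Reg3b with 36 and 78 cells, had the highest Fosb (56.7 and 21.8 CPM), Atf3 (250 and 131 CPM), Junb (363 and 324 CPM) and Fos (357 and 240 CPM) of either Lats-deleted library.

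Jun was highest in the Clca4a and Reg3b cells of Lats-deleted library 1, at 142 CPM, but had 62.2 CPM in those of library 2. In library 2 the Wfdc18 and Duox2 cluster had the highest Jun. In the Wfdc18 and Duox2 cluster, which stayed unnamed, Jun was at 129 and 142 CPM and Ier3 at 261 and 113 CPM. The gastric-like cells led by Tff1 and Gkn2, found in Lats-deleted library 2 alone, had Jun at 116 CPM, Fos at 230 CPM, Dusp1 at 139 CPM and Ier3 at 129 CPM. Stromal-like cells of Lats-deleted library 1 had Fos at 52.9 CPM, Junb at 138 CPM, Ier3 at 196 CPM and Dusp1 at 63.5 CPM, the lowest of its 6 clusters for each of these. Over the 26 profiles of a cluster in a library, log2(CPM + 1) of Ier3 and Dusp1 correlated at r = 0.849, as did that of Junb and Jund, while Jun correlated at between 0.585, with Fos, and 0.0997, with Fosb. Profiles of a library share depth and handling, so these values are descriptions.

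**Figure D2:**
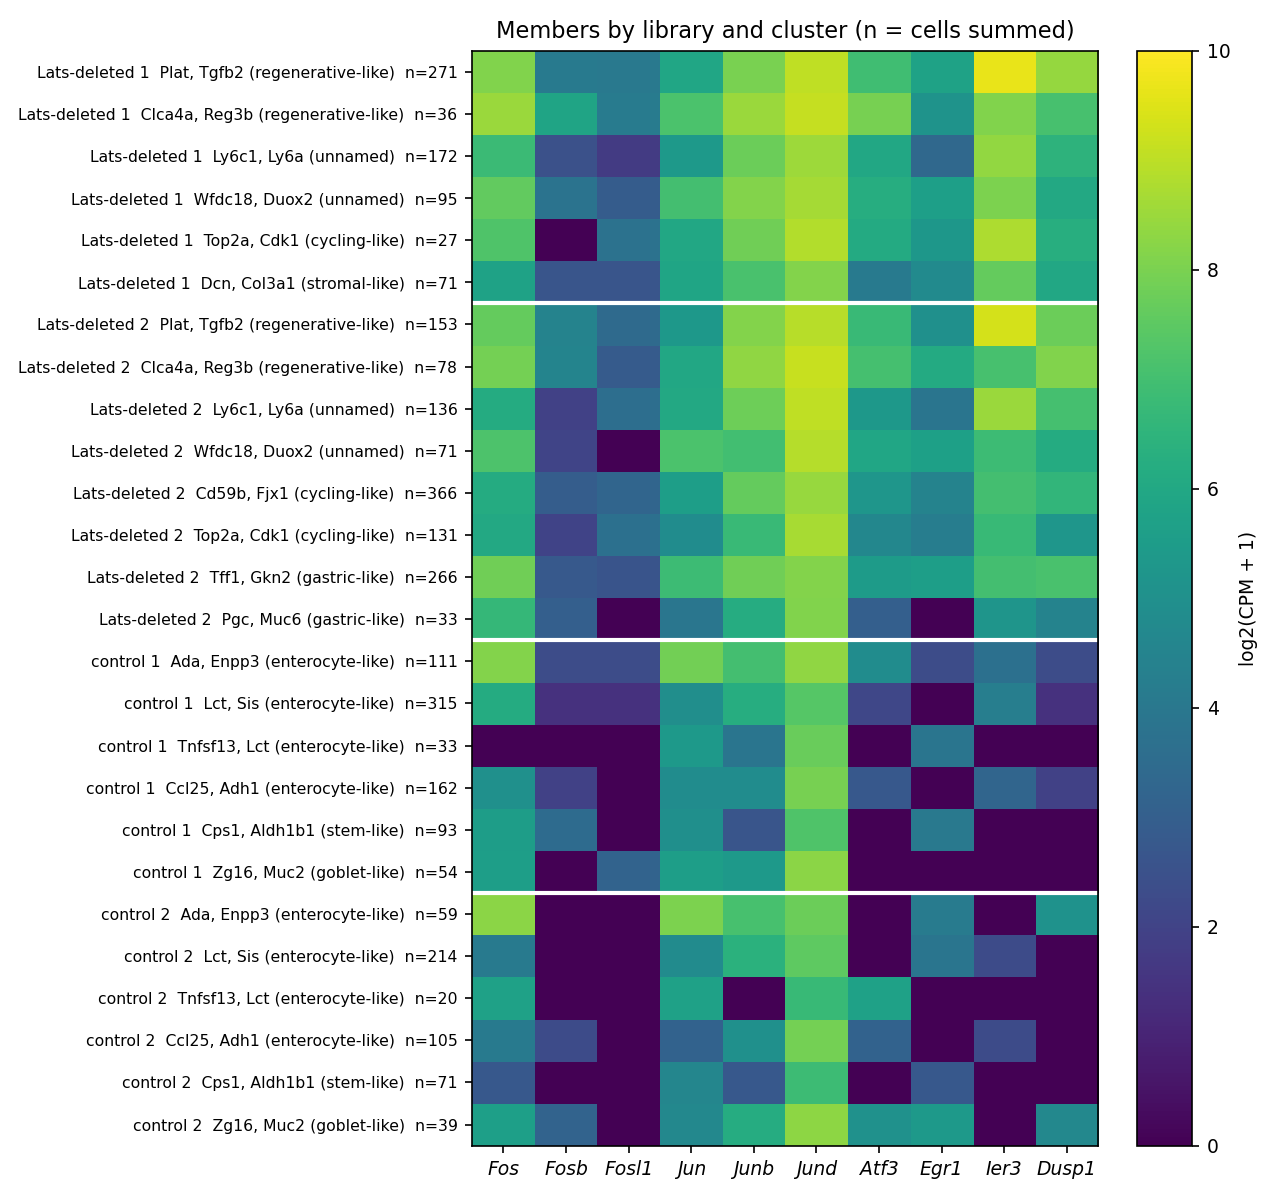
Level of each member (columns) in each cluster of at least 20 cells within a library (rows, with the number of cells), as log2(CPM + 1) in color, with Lats-deleted libraries above controls. Ier3 and Dusp1 are dark at 0 CPM in several control clusters, among them stem-like cells, where 3 counts amount to 15.5 and 17.4 CPM. Fos and Jun are bright in the control Ada and Enpp3 cells, at 285 and 308 CPM and 234 and 258 CPM.

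The comparison within stem-like and cycling progenitor-like cells asked whether the members differed among cells named for stem or cycling markers, with enterocytes set aside. Junb, Jund, Ier3 and Dusp1 were higher in the Lats-deleted cells, and Ier3, Dusp1, Atf3 and Fosl1 had no count in either control. The class held 38 and 505 Lats-deleted cells and 94 and 71 control cells. Control cells came almost all from the stem-like cluster led by Cps1 and Aldh1b1, and Lats-deleted cells mostly from 2 cycling clusters, led by Cd59b and Fjx1 and by Top2a and Cdk1, so cluster and genotype cannot be told apart. With finer clusters, at resolution 2, 255 cells of Lats-deleted library 2 formed an unnamed cluster led by Krt4, Cldn18 and Muc1. Cldn18 is a gastric marker, and Cd59b, Sftpd and Psat1 led both this cluster and the Cd59b and Fjx1 cluster. At that resolution the class held 277 cells in Lats-deleted library 2, against 505. The part of cells with stomach genes in the class was not measured. Of 3717 genes tested, 12.5% were called higher and 25.3% in either direction. Of the 5 members tested, 4 were called higher, but Fos, Junb, Ier3 and Dusp1 passed the filter on low counts only through the Lats-deleted libraries, so nothing is read from that count.

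Junb had 255 and 201 CPM in Lats-deleted progenitor-like cells and 6.40 and 7.13 CPM in controls. The controls held 2 counts in all, for a ratio of 30.4 with a 95% counting interval of 8.38 to 252 (adjusted p = 0.00029). Jund had 534 and 438 CPM against 186 and 143 CPM, without overlap (log2 fold change 1.54, SE 0.292, adjusted p = 0.00393). Ier3 had 472 and 146 CPM in Lats-deleted cells and 0 CPM in both controls, at least 16.8-fold higher against a floor of 3 counts over the group (adjusted p = 0.00229). Dusp1 had 74.5 and 92.6 CPM against 0 CPM in both controls, at least 8.25-fold higher (adjusted p = 0.00206).

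Fos was tested in this class without passing, and the other 5 members were not tested. Fos had 180 and 81.4 CPM in Lats-deleted progenitor-like cells and 57.6 and 7.13 CPM in controls (log2 fold change 1.77, adjusted p = 0.095, with a call in 4 of 13 alternatives). Atf3 had 68.3 and 39.2 CPM against 0 CPM in both controls, at least 4.09-fold higher. Jun had 68.3 and 52.4 CPM against 38.4 and 28.5 CPM, and Egr1 had 62.1 and 23.9 CPM against 19.2 and 7.13 CPM. Fosl1 had 12.4 and 11.2 CPM against 0 CPM in both controls, and Fosb had 0 and 6.61 CPM against 12.8 and 0 CPM. Without the Cd59b and Fjx1 cluster, of whose 375 cells 366 were in Lats-deleted library 2, Junb, Jund and Ier3 still passed, with adjusted p-values of 0.00292, 0.00497 and 0.00606, and Dusp1 was not among the genes tested. Dusp1 was not tested among cells with at least 2000 counts either.

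In enterocyte-like cells, no tested member passed the test. The class held 38 and 21 Lats-deleted cells and 621 and 398 control cells. Of 5868 genes tested, 0.17% were called, 10 genes in all, with 418 at an unadjusted p under 0.05 and 3 called by DESeq2. Of the 4 members tested, 0 were called, beside 0.0511% of all genes called higher and 0.119% called lower. Fos had 90.7 and 111 CPM in Lats-deleted enterocyte-like cells and 108 and 58.6 CPM in controls, overlapping (log2 fold change 0.22, adjusted p = 0.985). Junb had 79.3 and 55.7 CPM against 75.1 and 75.8 CPM (log2 fold change -0.10), and Jun had 90.7 and 18.6 CPM against 77.7 and 56.3 CPM. Jund had 295 and 353 CPM against 243 and 211 CPM, without overlap and short of the threshold (log2 fold change 0.48, adjusted p = 0.771).

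Ier3 had 0 counts among the 95643 and 55004 counts of the Lats-deleted enterocyte-like cells, and 14.7 and 3.45 CPM in control ones. A count of 0 allows up to 21.1 CPM over that group, so a level like that of the controls would not have been detectable, while the 526 and 213 CPM of all Lats-deleted cells would have been. Dusp1 had 3 and 0 counts in these cells and Atf3 had 4 and 0. Lats1 was at 22.7 and 37.1 CPM in Lats-deleted enterocyte-like cells and 23.3 and 37.9 CPM in control ones, the Lats-deleted values resting on 2 counts in each library.

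The difference of the Lats effect between progenitor-like and enterocyte-like cells was tested as an interaction of class and genotype, blocked by library. Of 4624 genes tested, 4.07% had a larger effect in progenitor-like cells and 11.9% were called in either direction. For Junb the difference was 5.16 on the log2 scale (SE 0.870, adjusted p = 9.97e-06), and its control progenitor-like cells held 2 counts. Ier3 also passed (adjusted p = 4.31e-05). Ier3 had no count in control progenitor-like cells or in Lats-deleted enterocyte-like cells, so its fitted size is not given. The progenitor-like class lay in different clusters in the 2 genotypes, as given above, and the part of this in the term was not tested. Both passed in 7 of 7 alternatives. Fos (difference 1.72, adjusted p = 0.134), Jund (1.05, adjusted p = 0.126), Jun (1.12, adjusted p = 0.471) and Dusp1 (adjusted p = 0.279) did not pass, and Fosb, Fosl1, Atf3 and Egr1 were not tested.

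**Figure D3:**
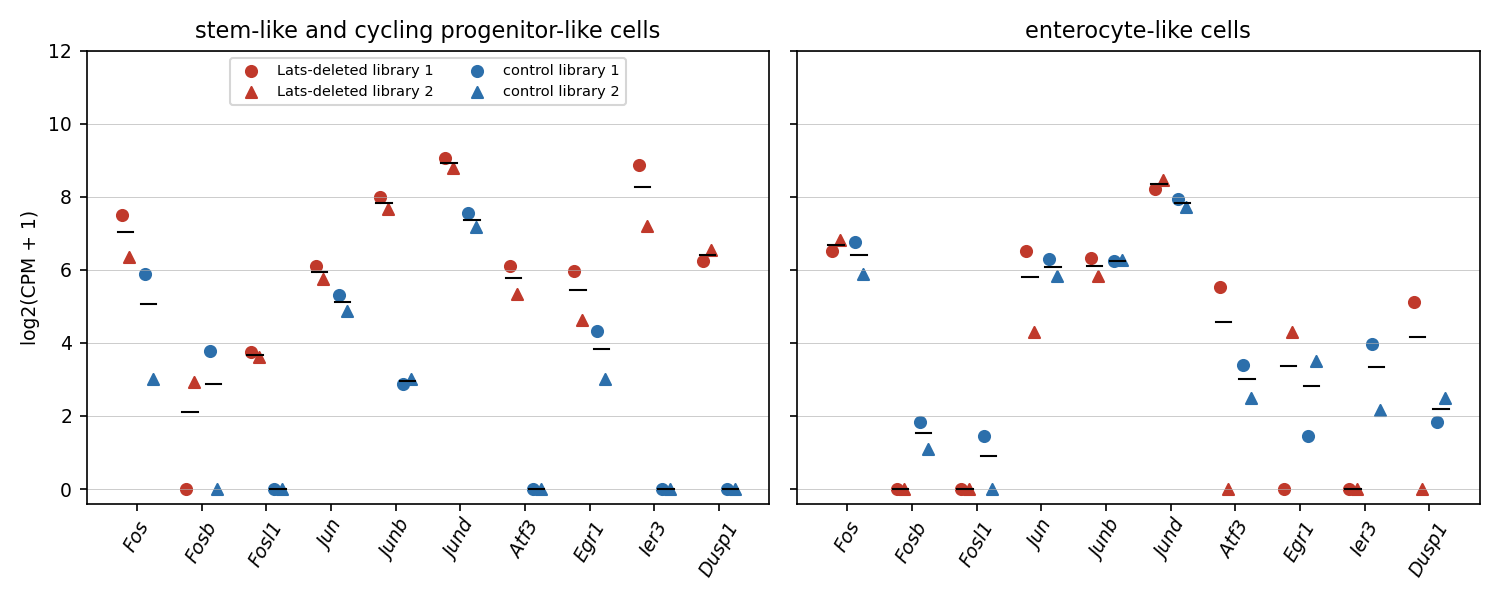
Level of each member as log2(CPM + 1) in stem-like and cycling progenitor-like cells (left panel) and enterocyte-like cells (right panel), with 1 point per library, Lats-deleted in red at the left of control in blue, and a bar at each group's mean CPM. Junb is apart in the left panel, at 255 and 201 CPM against 6.40 and 7.13 CPM, and overlaps in the right panel, at 79.3 and 55.7 CPM against 75.1 and 75.8 CPM.

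Genes around the members were followed by role, in the sum of all kept cells unless stated. Of other basic leucine zipper genes that can pair with AP-1 proteins, 16 of 18 were tested, 6 rose, 3 fell and 7 did not pass, with a median log2 fold change of 0.51. Atf5, a stress-response factor, had 138 and 102 CPM in Lats-deleted libraries and 16.3 and 14.9 CPM in controls (log2 fold change 2.93), and Jdp2, a JUN-binding repressor, had 32.3 and 37.0 CPM against 1.42 and 1.76 CPM (4.43). Maf, a large MAF factor, fell and had 49.0 and 15.3 CPM against 624 and 562 CPM (-4.22). Batf2 fell by 1.85 on the log2 scale. Adjusted p-values of these 4 genes were between 0.000537 and 0.00746. The members' FOS relative Fosl2 had 131 and 109 CPM against 92.7 and 80.0 CPM and did not pass (adjusted p = 0.144).

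Of other immediate early genes, 31 of 34 were tested, 16 rose, 1 fell and 14 did not pass, with a median log2 fold change of 1.42. Plk2, a kinase, had 83.4 and 75.2 CPM in Lats-deleted libraries and 2.12 and 3.52 CPM in controls (4.83), and Gadd45b, a stress sensor, had 122 and 141 CPM against 20.5 and 8.79 CPM (3.13). Cyr61 and Ctgf, matricellular genes that are also known YAP targets, had 247 and 160 CPM against 5.66 and 3.52 CPM, and 725 and 479 CPM against 4.25 and 0 CPM. Klf2 had no count in either control and was at least 10.9-fold higher. Btg1, an antiproliferative gene, fell by 0.71 on the log2 scale (adjusted p = 0.0376). The close early-response companions Ier2 (58.2 and 65.6 CPM against 66.5 and 53.6 CPM), Btg2 (51.0 and 69.4 CPM against 71.5 and 41.3 CPM) and Zfp36 (97.0 and 74.4 CPM against 169 and 114 CPM) did not pass, named after their values were seen.

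Of the ERK feedback genes, which MAP kinase signaling induces and most of which dampen it, most tested members were higher. Of 14 tested of 17 with a column, 9 rose, 0 fell and 5 did not pass, with a median log2 fold change of 1.80. Phlda1 had 436 and 377 CPM in Lats-deleted libraries and 28.3 and 24.6 CPM in controls (3.94, adjusted p = 0.000202), and the phosphatase gene Dusp4 had 14.4 and 13.97 CPM against 2.12 and 3.52 CPM (2.34). The phosphatase genes Dusp14 and Dusp7 had 3 control counts each, for ratios of 59.3 (95% counting interval 20.2 to 288) and 9.47 (3.16 to 46.6). Genes of the MAP kinase and SRF input itself were divided: of 22 tested, 4 rose, 4 fell and 14 did not pass, with a median of 0.10. The ternary complex factor gene Elk3 had 39.2 and 46.0 CPM against 2.83 and 3.52 CPM (3.75), while the kinase genes Rps6ka1 (-1.32), Map2k2 (-1.09), Mapk8 (-1.03) and Mapk3 (-1.19) fell.

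Of genes named in the literature as AP-1 targets, 20 of 23 were tested, 15 rose, 0 fell and 5 did not pass, with a median log2 fold change of 3.92. Plaur, the urokinase receptor, had 308 and 261 CPM in Lats-deleted libraries and 3.54 and 3.52 CPM in controls (6.32, adjusted p = 0.000183). F3, tissue factor, had 368 and 396 CPM against 5.66 and 2.64 CPM (6.47), and Ccnd1, cyclin D1, had 977 and 865 CPM against 54.5 and 62.4 CPM (3.98). Many of these are also YAP and TEAD targets. In progenitor-like cells 7 of 8 tested target genes, 7 of 15 tested immediate early genes and 1 of 1 tested ERK feedback gene (Phlda1) rose. In enterocyte-like cells none of the tested genes of those 3 lists rose, and Sgk1 fell by 1.66 on the log2 scale (adjusted p = 0.00319).

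**Figure D4:**
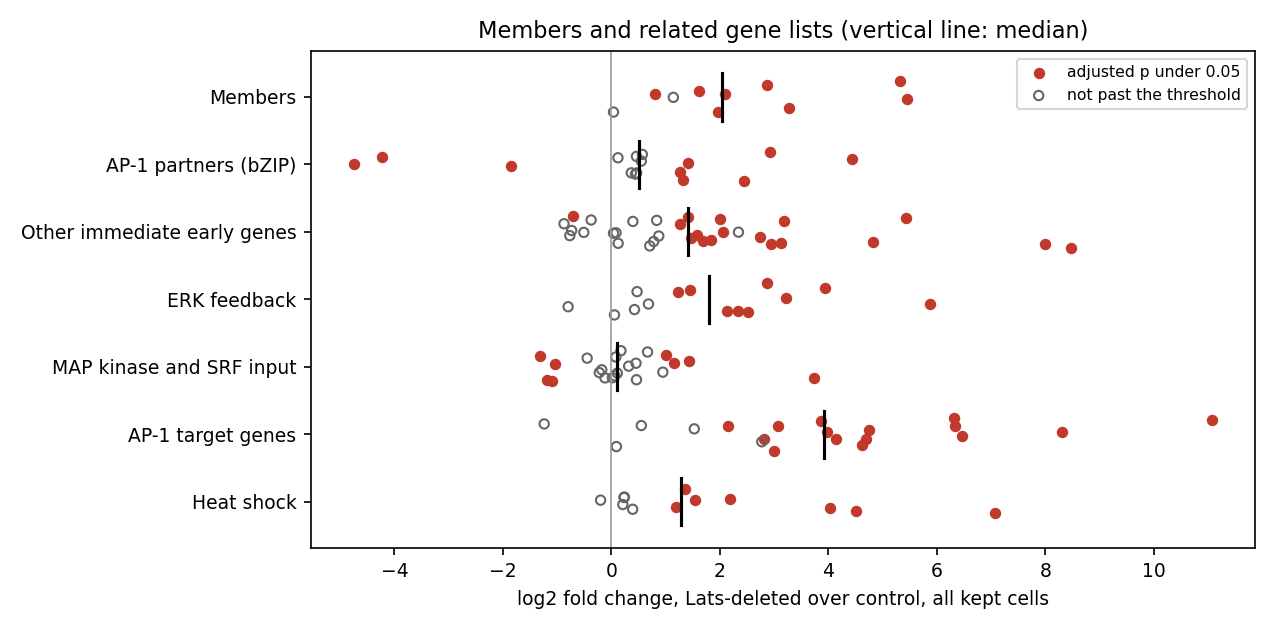
Log2 fold change, Lats-deleted over control, of each tested gene in the sum of all kept cells, for the members and 6 lists, with filled points past the threshold, open points not past it and a line at each median. Medians are 2.03 for the members, 0.10 for MAP kinase and SRF input and 3.92 for AP-1 target genes. The fitted points of Klf2 and Spp1, whose controls have no count, are not sizes of effect.

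Heat shock genes, followed because tissue handling can raise them, were in part higher in Lats-deleted libraries. Of 12 heat shock genes tested, 7 rose, 0 fell and 5 did not pass, and the list summed to 6205 and 6762 CPM in Lats-deleted libraries and 2937 and 3015 CPM in controls. Hsp90aa1 had 1022 and 1079 CPM against 200 and 264 CPM (log2 fold change 2.18), Hsph1 had 89.0 and 87.7 CPM against 31.2 and 29.0 CPM (1.55), and Hspb1 had 319 and 115 CPM against 1.42 and 1.76 CPM (7.07). Hspa1a had 3 control counts, for a ratio of 23.4 (95% counting interval 7.93 to 114). In progenitor-like cells 3 of 11 tested heat shock genes rose (Hspa1b, Hsp90aa1 and Hspb1, named after their values were seen). In enterocyte-like cells, where 0.17% of all genes were called, 0 of 9 were. Within libraries, cells over the median mitochondrial share had less Fos than the others in Lats-deleted libraries (202 and 119 CPM against 238 and 155 CPM) and more in controls (127 and 81.3 CPM against 53.1 and 15.7 CPM). The part of dissociation and of RNA quality in the members' levels was not tested.

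The genes whose pattern over the 26 cluster profiles was most like the summed Fos, Jun, Junb and Egr1 counts, among 3406 genes of at least 50 CPM on average, were Klf6 (r = 0.892), Clic1 (0.882), Plec (0.881), Capg (0.879) and Cdc42se1 (0.872). Klf6, itself an immediate early gene, had 642 and 416 CPM in all kept cells of Lats-deleted libraries and 169 and 93.2 CPM in controls (log2 fold change 2.01, adjusted p = 0.0074). Those most like Fosl1 were Cep170b (0.806), Pim1 (0.783), Emp2 (0.783), Ahnak (0.782) and Tnfrsf12a (0.775). The profiles share libraries and the split between the groups, and these values are descriptions.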

How the data were processed

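Each of the 4 libraries has 1 table of counts, in which lines are barcodes and columns are genes, per the file headers. The deposited counts are whole numbers, with no normalization. RSEM 1.3.0, Bowtie 1.1.1.1, SAMtools 1.3.1 and mm10 are named with no role, per the submitters' processing notes. Counting of molecular identifiers is not given in the sources used here. The files hold 4731529 and 9191916 counts for Lats-deleted libraries and 2872497 and 2247269 for controls.

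Cells were barcodes with 1000 or more counts, 300 or more genes and no more than 30% mitochondrially encoded counts. No doublet caller was run. Cells were scaled to 10000 counts, and 2000 variable genes without the members, 30 components and 15 neighbours gave Leiden clusters at resolution 1 (scanpy 1.11.5, leidenalg 0.10.2, Python 3.11.15). A cluster was named "-like" where 3 or more markers of a list were 1.5-fold above the rest and present in 10% of its cells, with a mean log2 fold over 0.5.

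Counts were summed per library over all kept cells, progenitor-like cells and enterocyte-like cells, if no library had under 20. After filterByExpr and TMM scaling, the quasi-likelihood test of edgeR 4.0.16 (R 4.3.3) was used, with Benjamini-Hochberg adjustment over all genes tested and a threshold of 0.05. The library was the replicate. DESeq2 1.42.0 and other alternatives are given in the closing section. The steps were tested on simulated data. CPM of a comparison use TMM-scaled sizes of the tested genes. CPM within a cluster use the plain total. Lower bounds use 3 counts over the group at 0.

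The members, lists and tests were chosen with earlier results of these data known. Of each list, up to 4 genes of smallest p in all kept cells were named, and called genes going against most of their list.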

Additional observations from a re-analysis of the deposited data

Results flagged for a closer look

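Barcodes with under 500 counts, which took no part in the comparisons, also held more of 9 members in the Lats-deleted libraries. The share of all genes that separate in this way was not computed, so nothing is read from that number. Control values of Fosb rested on 4 and 2 counts and those of Fosl1 on 0 and 0. The lower of the Lats-deleted values, in plain CPM, stood above both controls: Ier3 335.0 against 1.74 and 17.0, Dusp1 101.7 against 12.2 and 3.78, and Atf3 58.41 against 5.22 and 0. For Junb it was 177.4 against 73.0 and 56.8, for Jund 299.999 against 156.5 and 149.5, and for Fos 160.1 against 92.1 and 51.1. For Egr1 it was 34.36 against 12.2 and 3.78, for Fosb 11.34 against 6.95 and 3.78, and for Fosl1 8.589 against 0 and 0. Jun did not show this, with 73.6 and 52.6 CPM in Lats-deleted libraries and 90.4 and 66.2 CPM in controls. The part of free RNA in the levels within kept cells was not tested.

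The class by genotype term, progenitor-like against enterocyte-like cells, passed the threshold for Junb (adjusted p = 9.97e-06) and for Ier3 (adjusted p = 4.31e-05). Both were higher in the Lats-deleted progenitor-like cells, at 255 and 201 CPM against 6.40 and 7.13 CPM for Junb and 472 and 146 CPM against 0 CPM for Ier3. In enterocyte-like cells Junb had 79.3 and 55.7 CPM against 75.1 and 75.8 CPM, and Ier3 had 0 CPM in both Lats-deleted libraries against 14.7 and 3.45 CPM. These values rest on few counts: the control progenitor-like cells held 2 counts of Junb and 0 of Ier3, and the Lats-deleted enterocyte-like cells 0 of Ier3. Progenitor-like cells also came from a stem-like cluster in controls and mostly from cycling clusters in Lats-deleted libraries, so cluster and genotype cannot be told apart.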

How the results depend on the processing

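Of the values of single genes and shares computed under alternatives, 272 kept their direction and side of the threshold, 15 newly passed it, 17 no longer passed, 29 moved by more than their error and 10 turned their sign, none of these a call in the main setting or the alternative. For Jun in all kept cells the log2 fold change was -0.28 with thinned cells, -0.12 with gastric-like cells left out, -0.091 with the Cd59b and Fjx1 cluster left out too, and from -0.17 to 0.38 without 1 library, against 0.04. In enterocyte-like cells Fos was -0.076 with no filter on low counts and from -0.14 to 0.72 without 1 library, against 0.22, and Jun was 0.26 with thinned cells and from -1.99 to 0.32 without 1 Lats-deleted library, against -0.11. The count of genes called in all kept cells was 1475 with enterocyte-like cells left out, against 3869, and leaving out 1 library gave 1228 to 5387 genes and 3 to 9 members. In progenitor-like cells it was 544 with DESeq2 and 455 with cells thinned to 1000 counts, against 940, and 493 to 1174 without 1 library. In enterocyte-like cells it was 3 with DESeq2, 56 with no filter on low counts and 20 with thinned cells, against 10, and 5 to 48 without 1 library. The class by genotype term called 316 genes with no filter and 333 with clusters at resolution 2, against 549, and 192 to 593 without 1 library. A group left with 1 library was assumed to vary like the other. The causes were not tested.

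With gastric-like cells and the Cd59b and Fjx1 cluster left out, an alternative chosen after seeing the data, 4734 genes and 9 members were called, Fos included (adjusted p = 0.0281). Replicate numbers shared by the groups were not used to pair the libraries. Deviations of same-numbered libraries correlated at 0.0447 over 12561 genes. With 2 libraries a group, this value cannot show whether same-numbered libraries were prepared together. A replicate block gave 4162 called genes in all kept cells, 792 in progenitor-like cells and 10 in enterocyte-like cells. Enterocyte-like cells with at least 2000 counts or at most 15% mitochondrial counts were not run, since a library then held under 20 cells. Depth limits the low members: Fosb and Fosl1 had 7 and 3 control counts in all.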
